A study of Caenorhabditis elegans with 24 samples.

Results

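Messenger RNA of the unfolded protein response of the endoplasmic reticulum (ER) was followed through 10 genes of *C. elegans*, taken by name from the WBcel235 annotation in the deposited tables, which hold counts for 46756 genes. The genes comprised the stress sensors *ire-1*, *pek-1* and *atf-6*, the transcription factors *xbp-1* and *atf-4*, the lectin chaperones *crt-1* and *cnx-1*, and the folding enzymes *pdi-2*, *ero-1* and *dnj-27*. All 10 were among the 13482 genes kept for testing, whose counts averaged 10 or more. RNA came from whole animals on day 1 of adulthood, grown at 20°C on OP50 bacteria and then kept for 3 h at 37°C or at 20°C. The study used this design to ask how neuronal HLH-30, the worm homologue of the mammalian autophagy and lysosome regulator TFEB, bears on the response to heat. Neuronally rescued animals had the deletion *hlh-30(tm1978)* and, in addition, a transgene that drives *hlh-30::GFP* from the *rab-3* promoter with the *rab-3* 3′UTR, so that the protein is restored in neurons while the rest of the body keeps the mutation. They came from a single transgenic strain, marked by *unc-122p::RFP*, and are called rescued animals below. The *hlh-30(tm1978)* mutants carried the same deletion without the transgene, and wildtype animals were N2 Bristol. Each of the 6 groups of genotype and temperature had 4 replicates in the labels.

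Secreted and membrane proteins fold in the ER, and when unfolded protein accumulates there, 3 sensors in its membrane signal to the rest of the cell. IRE-1 cuts the *xbp-1* messenger so that it can be spliced to encode an active transcription factor, PEK-1 phosphorylates the translation factor eIF2α, which slows protein synthesis and favours translation of ATF-4, and ATF-6 is a membrane-bound transcription factor. Their targets include chaperones, disulfide-forming enzymes and the machinery that removes misfolded proteins. Gene counts add up the spliced and unspliced forms of *xbp-1* and do not report phosphorylation or protein levels, so the values below are transcript abundances alone.

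The 23 libraries used held 11207383 to 28091186 counts (median 13971947), with 6 libraries at 23025013 or more and 17 at 15845829 or fewer. The table labelled as replicate 1 of wildtype animals at 20°C held the same count as replicate 4 at 37°C in each of the 46756 genes and was not used, so wildtype animals at 20°C had 3 libraries. Values are CPM, the counts of a gene relative to the total of its library, scaled by edgeR's TMM factors. *hlh-30* had 24.4, 27.02, 50.8 and 24.7 CPM in rescued animals at 37°C, against 61.1, 77.2, 57.3 and 117 CPM at 20°C. Mutant libraries held 7.87, 4.19, 6.96 and 5.64 CPM after heat and 8.11, 8.62, 16.0 and 13.7 CPM without it, and wildtype libraries 17.3, 20.4, 15.5 and 17.2 CPM after heat and 39.9, 43.5 and 73.7 CPM without it. At each temperature the 4 mutant libraries lay below all the others. The cytosolic heat shock gene *hsp-70* had 763.9 to 2591 CPM over the libraries at 37°C and 0.422 to 16.38 CPM over those at 20°C. The highest at 20°C was mutant replicate 1, and the other mutant libraries there held 1.52 to 2.41 CPM. By edgeR at 37°C, *hsp-70* was lower in rescued animals than in mutants (log2 fold change -1.13, adjusted p = 0.000636). It was also lower there than in wildtype animals (-0.85, adjusted p = 0.011). At 20°C it was higher in rescued than in wildtype animals (2.09, adjusted p = 0.0336).

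The makeup of the RNA moved with temperature. The summed level of 5 intestine markers was 7072 to 9347 CPM in rescued animals at 37°C and 14401 to 44073 CPM at 20°C, 1687 to 6435 CPM in mutants at 37°C and 16640 to 39794 CPM at 20°C, and 2578 to 4684 CPM in wildtype animals at 37°C and 26724 to 53411 CPM at 20°C. Most of this sum was the yolk protein gene *vit-2*, at 1426 to 50070 CPM over the libraries. Of these 5 markers, 3 were lower with heat in rescued animals, and all 5 were in mutants and in wildtype animals. The summed level of 5 germline and oocyte markers was 1236 to 2134 CPM in rescued animals at 37°C and 640.5 to 1600 CPM at 20°C, 1209 to 2232 CPM in mutants at 37°C and 613.5 to 1068 CPM at 20°C, and 1797 to 3287 CPM in wildtype animals at 37°C and 448.6 to 1183 CPM at 20°C. Of these, 2 were higher with heat in rescued animals, 3 in mutants, where 1 was lower, and 3 in wildtype animals. Hypodermis markers summed to 1292 to 2497 CPM in rescued animals at 37°C and 634 to 770.3 CPM at 20°C, 822 to 2142 CPM in mutants at 37°C and 426 to 649 CPM at 20°C, and 488 to 1483 CPM in wildtype animals at 37°C and 292 to 456 CPM at 20°C, with 1 of 2 tested called higher in each genotype. Sperm markers summed to at most 19.7 CPM in any library, and 1 of 4 was called higher with heat in each genotype. Body wall muscle markers summed to 775.6 to 2160.1 CPM over the 23 libraries, with 1 of 4 called higher in rescued animals and 1 lower in mutants. Neuron markers summed to 131 to 252 CPM, with 2 of 5 called lower in each genotype, and 2 higher in mutants and 1 in wildtype animals. Of those lower, *rab-3* had 45.6 to 71.7 CPM in rescued animals at 20°C, against 4.31 to 6.66 CPM in mutants and 4.78 to 6.91 CPM in wildtype animals, and the transgene holds its promoter and 3′UTR. The cuticle collagen gene *rol-6*, which marks hypodermis, was at or near 0 in every group. Most of the hypodermis sum was *col-19*, at 291 to 2490 CPM over the libraries. In whole animals, fewer cells of a type and less RNA per cell cannot be told apart, and the part of these shifts in the changes below was not tested.

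At 20°C, 2 libraries stood apart in the same way. In wildtype replicate 4, 9 of the 10 genes were at their highest of the 3 libraries, and the summed intestine level was 53411 CPM, against 26724 and 35880 CPM in the other two. In rescued replicate 4, 7 of the 10 were at their highest of the 4 libraries, with 44073 CPM against 14401 to 23125 CPM. In both, the summed germline and oocyte level was the lowest of the group, at 448.6 CPM in wildtype replicate 4 and 640.5 CPM in rescued replicate 4. Mutant replicate 3 at 20°C also had the highest intestine level of its group (39794 CPM) and the lowest germline level (613.5 CPM), and 2 of the 10 genes were at their highest in it. In these libraries most of the intestine level was *vit-2*, at 50070, 40641 and 36267 CPM in the order given. The other intestine markers were also highest of the group there, except *act-5* in wildtype replicate 4 (563.9 CPM, against 585.7 CPM in replicate 3). At 37°C, wildtype replicate 3 had the lowest level of its group in 7 of the 10 genes. Rescued replicate 3 and mutant replicate 4 at 37°C each had the highest in 6 of the 10.

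On a scale that corrects for transcript length (TPM, the share of a gene among all transcripts, computed from the counts and the gene lengths in the tables), the 10 genes spanned a wide range. The calcium-binding chaperone gene *crt-1* had the highest mean in each of the 6 groups, between 433 ± 87.3 TPM in rescued animals at 20°C (SD, n = 4) and 959 ± 327 TPM in wildtype animals at 20°C (SD, n = 3), and its libraries did not overlap those of the gene ranked after it in any group. *atf-6* had the lowest mean in all 6 groups, from 2.83 ± 0.757 TPM in wildtype animals at 37°C to 7.27 ± 4.85 TPM at 20°C. In wildtype animals at 37°C, the order from the top was *crt-1*, *pdi-2*, *xbp-1*, *cnx-1*, *atf-4*, *ero-1*, *ire-1*, *pek-1*, *dnj-27* and *atf-6*, and the neighbours from *atf-4* to *pek-1* overlapped in their libraries. In wildtype animals at 20°C, *ire-1* at 42.7 ± 6.77 TPM and *ero-1* at 42.4 ± 6.33 TPM overlapped, as did *pek-1* with *dnj-27* and *dnj-27* with *atf-6*, while the others were separate from their neighbours.

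The order differed between groups in 3 places. *ero-1* stood above *ire-1* in wildtype animals at 37°C, at 21.3 ± 4.89 and 21.2 ± 4.29 TPM with overlapping libraries, and below it in the other 5 groups. *xbp-1* stood above *pdi-2* in rescued animals at 37°C, at 182 ± 36.3 and 159 ± 26.0 TPM with overlapping libraries, and below it in the other 5 groups. *pek-1* stood below *dnj-27* in rescued animals at 20°C, at 8.06 ± 1.87 and 8.12 ± 3.10 TPM, also overlapping, and above it elsewhere. Among the sensors, *ire-1* was above *pek-1* and *pek-1* above *atf-6* in all 6 groups. In mutants at 37°C the mean of *ire-1* was 25.3 ± 2.72 TPM, beside 18.02 ± 3.79 TPM of *pek-1* and 3.08 ± 0.689 TPM of *atf-6*. At 20°C these means in mutants were 46.4 ± 6.52, 8.75 ± 1.02 and 5.73 ± 1.04 TPM, with *ire-1* and *pek-1* farther apart than at 37°C.

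**Figure D1:**
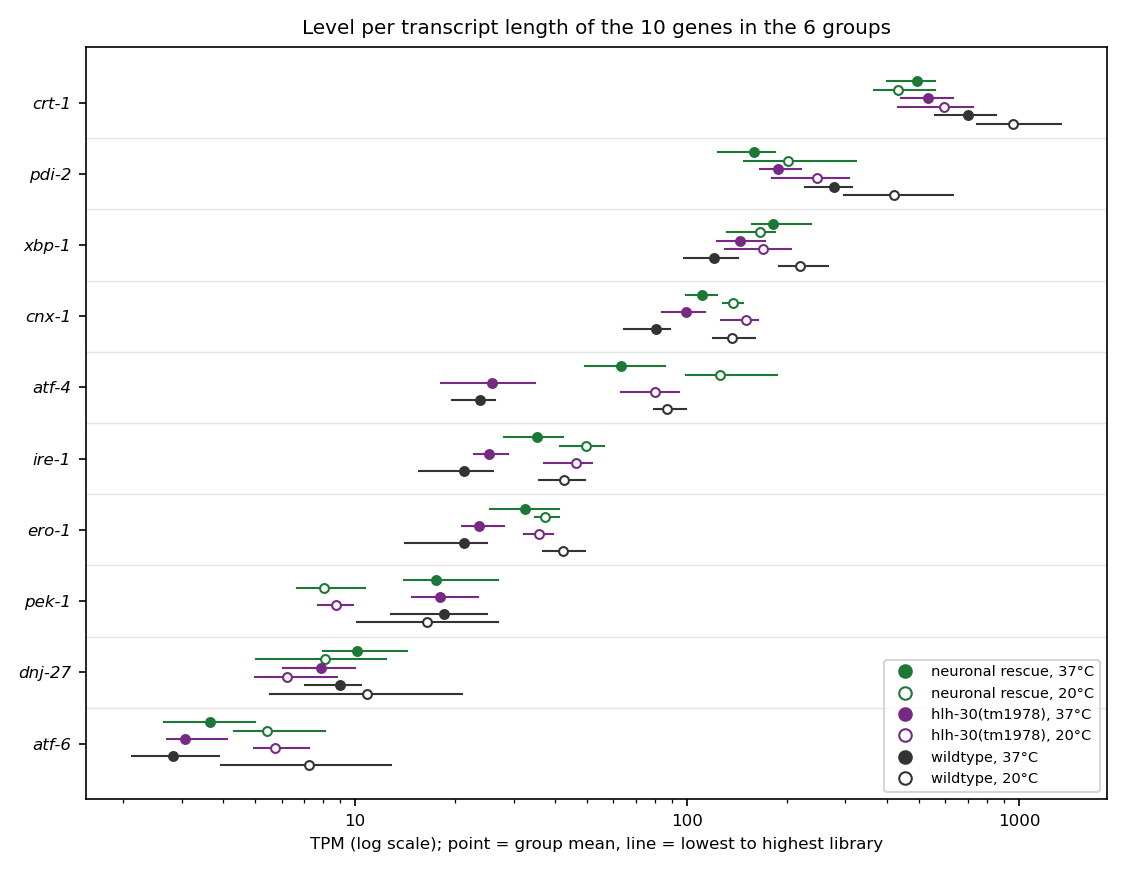
Level of the 10 genes per transcript length (TPM, log scale on the x axis) in the 6 groups, with the group mean as a point (filled at 37°C, open at 20°C) and a line from the lowest to the highest library, for 4 libraries a group and 3 in wildtype animals at 20°C. *crt-1* is at the top and *atf-6* at the bottom in every group, and the filled points of *atf-4* sit left of the open ones in each genotype.

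Heat did not move the 10 genes in one direction. In rescued animals, 1 gene was higher (*pek-1*) and 1 lower (*atf-4*) at 37°C, where 20.4% of all tested genes passed the threshold, 11.7% higher and 8.72% lower (edgeR's quasi-likelihood test, Benjamini-Hochberg adjusted p under 0.05). In mutants, 2 were higher (*pek-1* and *dnj-27*) and 3 lower (*ire-1*, *atf-6* and *atf-4*), with 38.1% of all genes called, 21.3% higher and 16.8% lower. In wildtype animals, none was higher and 4 were lower (*ire-1*, *atf-4*, *cnx-1* and *ero-1*), with 32.1% of all genes called. Of the 13482 genes tested there, 2029 were called higher, and 17.1% were called lower. The median log2 fold change of the 10 was -0.06 in rescued animals, -0.18 in mutants and -0.46 in wildtype animals, and that of all tested genes was 0.01, 0.04 and 0.01 in the same order. The libraries of the 2 temperatures did not overlap for 3 of the 10 genes in rescued animals, 4 in mutants and 5 in wildtype animals, and for 24.5%, 36.0% and 40.9% of all tested genes.  In wildtype animals, with whether a library was among the deeper ones as a covariate, *atf-4* alone of the 10 was called. Of the wildtype libraries, 3 of the 4 at 37°C were deeper and all 3 at 20°C were shallower.

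**Figure D2:**
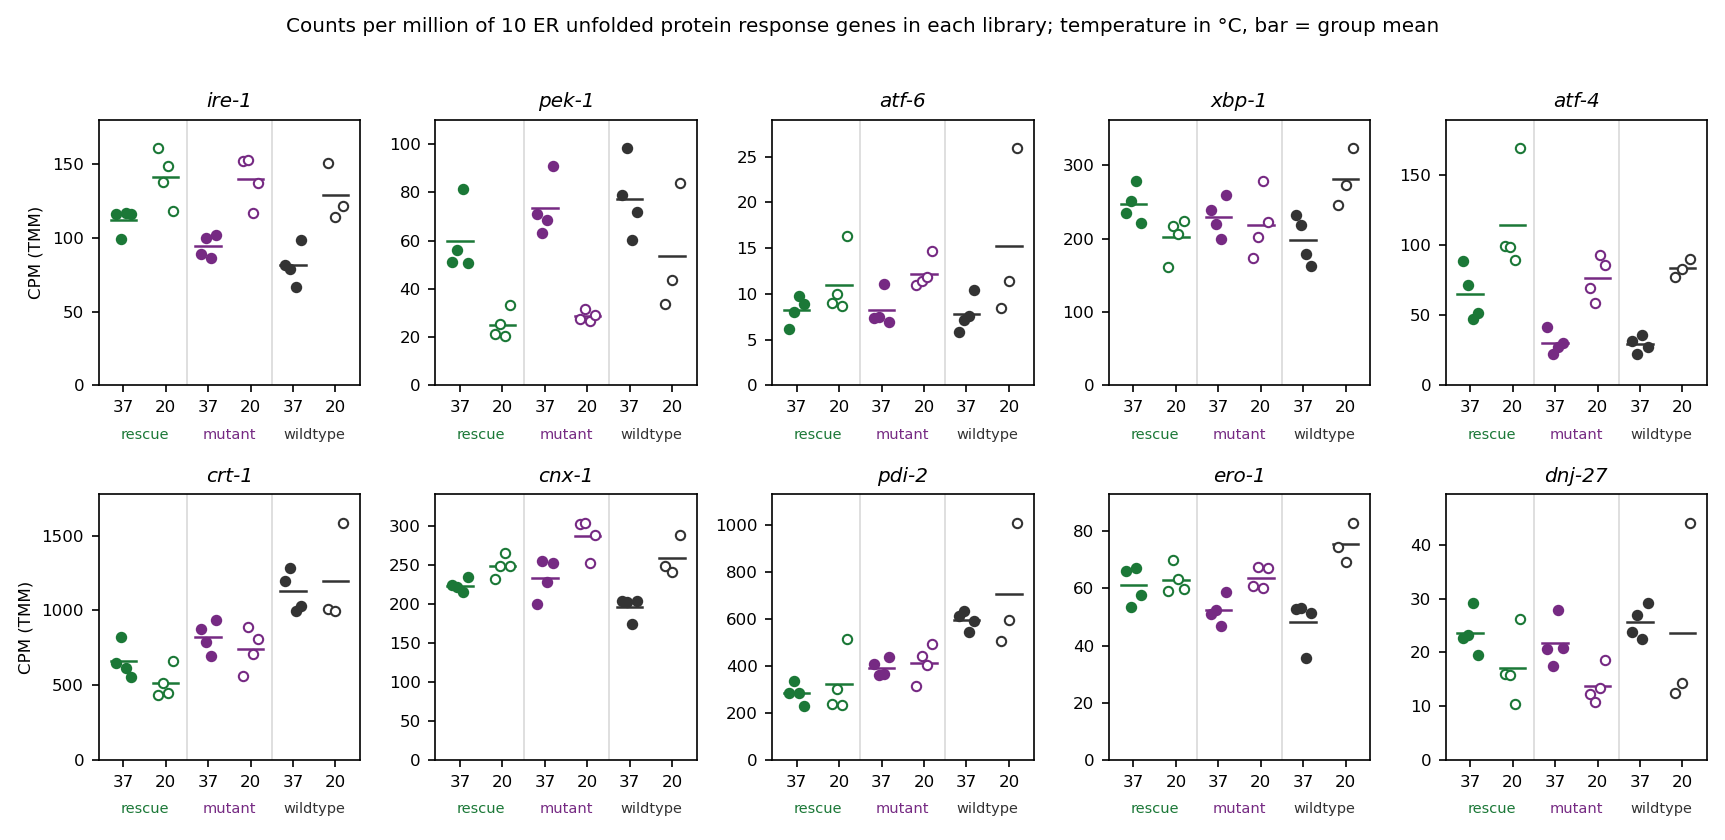
CPM of each of the 10 genes in every library (y axis, linear from 0), with filled points at 37°C and open points at 20°C and a bar at the group mean, for rescued animals, mutants and wildtype animals. *pek-1* is higher and *atf-4* lower at 37°C in each genotype's means, and the single high open point of wildtype animals in *pek-1*, *atf-6*, *pdi-2* and *dnj-27* is replicate 4.

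Of the 3 sensors, *ire-1* fell in mutants and wildtype animals, *pek-1* rose in rescued animals and mutants, and *atf-6* fell in mutants. *ire-1* (WBGene00002147, minus strand of chromosome II, 8112262 to 8124910) encodes the kinase and endoribonuclease that starts the splicing of *xbp-1*. *ire-1* had 116, 99.6, 117 and 116 CPM in rescued animals at 37°C, against 161, 138, 149 and 118 CPM at 20°C. Mutant libraries held 89.4, 99.7, 86.2 and 102 CPM after heat and 152, 153, 117 and 137 CPM without it, and wildtype libraries 81.4, 79.3, 66.9 and 98.3 CPM after heat and 151, 114 and 122 CPM without it. The 37°C libraries were all below the 20°C libraries in each genotype. The log2 fold change was -0.30 ± 0.13 in rescued animals (standard error, adjusted p = 0.132, exact permutation p = 0.0286), -0.57 ± 0.12 in mutants (adjusted p = 0.00286, exact permutation p = 0.0286) and -0.67 ± 0.17 in wildtype animals (adjusted p = 0.0154, exact permutation p = 0.0571). A 2-sided exact permutation test cannot go below 0.0286 with 4 libraries against 4, nor below 0.0571 with 4 against 3. In rescued animals the call turned on replicate 4 at 20°C: without it, the change was -0.37 (adjusted p = 0.0294). In wildtype animals the call was lost without replicate 2 at 20°C, with a change of -0.52 (adjusted p = 0.0514).

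*pek-1* (WBGene00003970, minus strand of chromosome X, 11410181 to 11414887), the worm PERK kinase that phosphorylates eIF2α, had the largest rise among the 10. *pek-1* had 51.3, 56.1, 81.5 and 50.8 CPM in rescued animals at 37°C, against 21.3, 25.5, 20.7 and 33.4 CPM at 20°C. Mutant libraries held 71.3, 63.2, 68.5 and 90.9 CPM after heat and 27.6, 31.9, 26.7 and 29.2 CPM without it, and wildtype libraries 78.9, 98.4, 60.3 and 72.0 CPM after heat and 33.8, 43.6 and 83.8 CPM without it. The temperatures were fully separate in rescued animals and in mutants, and in wildtype animals replicate 4 at 20°C lay among the 37°C libraries. The change was 1.29 ± 0.20 in rescued animals (adjusted p = 0.000772, exact permutation p = 0.0286), 1.35 ± 0.14 in mutants (adjusted p = 2.3e-05, exact permutation p = 0.0286) and 0.53 ± 0.31 in wildtype animals, which did not pass the test (adjusted p = 0.224, exact permutation p = 0.229). Without wildtype replicate 4 at 20°C, the wildtype change was 0.99 (adjusted p = 0.023).

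*atf-6* (WBGene00000222, plus strand of chromosome X, 12480948 to 12484904), the gene of the third sensor, was counted at 57 to 364 reads per library. *atf-6* had 6.14, 8.003, 9.76 and 8.92 CPM in rescued animals at 37°C, against 8.99, 10.0, 8.66 and 16.37 CPM at 20°C. Mutant libraries held 7.34, 7.51, 11.1 and 6.89 CPM after heat and 10.9, 11.4, 11.8 and 14.7 CPM without it, and wildtype libraries 5.79, 7.18, 7.62 and 10.4 CPM after heat and 8.51, 11.4 and 25.9 CPM without it. The temperatures overlapped in every genotype, in mutants through replicate 3 at 37°C alone. The change was -0.38 ± 0.24 in rescued animals (adjusted p = 0.302), -0.58 ± 0.19 in mutants (adjusted p = 0.0328, exact permutation p = 0.0571) and -0.98 ± 0.37 in wildtype animals (adjusted p = 0.0743). The call in mutants was lost without any one of 5 of their 8 libraries, with adjusted p from 0.0523 to 0.103, and in one fit of all 6 groups (adjusted p = 0.12). The wildtype change was -0.38 without replicate 4 at 20°C (adjusted p = 0.338) and -1.26 without replicate 2 at 20°C (adjusted p = 0.034).

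**Figure D3:**
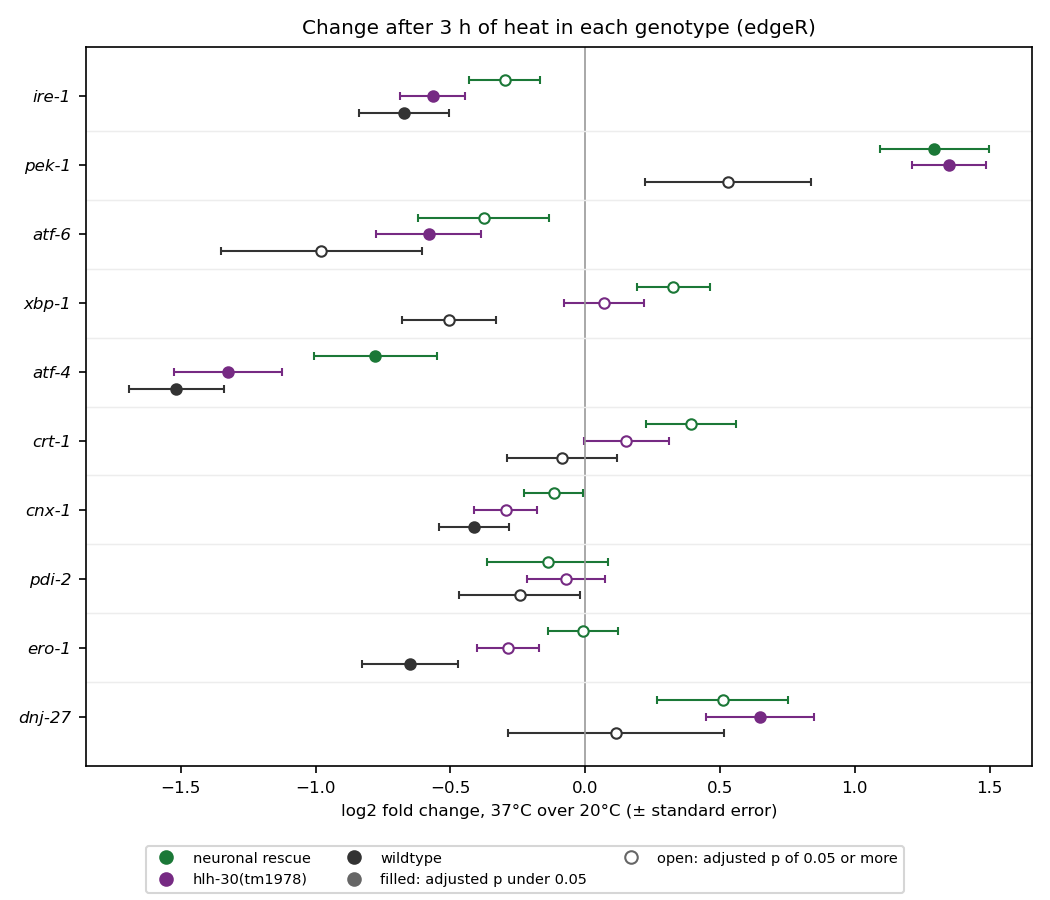
Log2 fold change of the 10 genes at 37°C over 20°C (x axis) with its standard error from edgeR, in rescued animals, mutants and wildtype animals, with filled points where the adjusted p was under 0.05. *atf-4* lies below 0 and is called in all 3 genotypes, *pek-1* is called above 0 in 2 of them, and *xbp-1* lies on both sides of 0.

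The 2 transcription factors differed from each other. *xbp-1* (WBGene00006959, plus strand of chromosome III, 4193809 to 4195358), whose messenger is the substrate of IRE-1, was called in no genotype. *xbp-1* had 235.4, 252, 278 and 222 CPM in rescued animals at 37°C, against 161, 217, 207 and 224 CPM at 20°C. Mutant libraries held 239, 221, 199.95 and 260.0 CPM after heat and 173, 202, 278 and 223 CPM without it, and wildtype libraries 232, 219, 179 and 163 CPM after heat and 246, 273 and 323 CPM without it. In wildtype animals all 4 libraries at 37°C were below the 3 at 20°C, and in the other genotypes the temperatures overlapped. The change was 0.33 ± 0.14 in rescued animals (adjusted p = 0.11), 0.07 ± 0.15 in mutants (adjusted p = 0.744) and -0.51 ± 0.17 in wildtype animals (adjusted p = 0.0535, exact permutation p = 0.0571). Under 5 of the 11 other settings, the wildtype change passed the threshold, with adjusted p from 0.0132 to 0.0491.

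*atf-4* (WBGene00000221, minus strand of chromosome X, 14808846 to 14810849), the transcription factor translated when eIF2α is phosphorylated, was the only one of the 10 called in every genotype, lower each time. *atf-4* had 89.0, 71.8, 47.2 and 51.7 CPM in rescued animals at 37°C, against 99.5, 98.2, 89.1 and 169 CPM at 20°C. Mutant libraries held 41.6, 22.4, 27.7 and 30.4 CPM after heat and 69.1, 59.0, 92.9 and 85.9 CPM without it, and wildtype libraries 31.9, 22.3, 35.9 and 27.3 CPM after heat and 76.9, 83.2 and 89.9 CPM without it. All libraries at 37°C were below all those at 20°C in each genotype, by a narrow margin in rescued animals. The change was -0.78 ± 0.23 in rescued animals (adjusted p = 0.0291, exact permutation p = 0.0286), -1.32 ± 0.20 in mutants (adjusted p = 0.000315, exact permutation p = 0.0286) and -1.52 ± 0.18 in wildtype animals (adjusted p = 0.000557, exact permutation p = 0.0571). In rescued animals the call was lost without replicate 4 at 20°C, with a change of -0.52 (adjusted p = 0.0587), and without replicate 2, 3 or 4 at 37°C (adjusted p from 0.0706 to 0.0934), as well as with depth class as a covariate (adjusted p = 0.0911). *pek-1* and *atf-4* thus moved in opposite directions at the transcript level in rescued animals and in mutants.

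The lectin chaperones hold newly made glycoproteins during folding, calreticulin (*crt-1*) inside the ER and calnexin (*cnx-1*) in its membrane. *crt-1* (WBGene00000802, minus strand of chromosome V, 6098993 to 6100553) was not called with heat. *crt-1* had 646, 826, 616 and 552 CPM in rescued animals at 37°C, against 438, 516, 447 and 662 CPM at 20°C. Mutant libraries held 879, 792, 695 and 935 CPM after heat and 562, 891, 707 and 810.0 CPM without it, and wildtype libraries 1199, 1282, 997 and 1031 CPM after heat and 1008, 993 and 1585 CPM without it. The temperatures overlapped in each genotype. The change was 0.39 ± 0.17 in rescued animals (adjusted p = 0.116), 0.15 ± 0.16 in mutants (adjusted p = 0.476) and -0.09 ± 0.20 in wildtype animals (adjusted p = 0.769). Without rescued replicate 4 at 20°C, the change in rescued animals was 0.54 (adjusted p = 0.0198).

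*cnx-1* (WBGene00000567, minus strand of chromosome III, 9814364 to 9817137) was lower with heat in wildtype animals. *cnx-1* had 224, 222, 215 and 234 CPM in rescued animals at 37°C, against 233, 249.6, 265 and 249 CPM at 20°C. Mutant libraries held 199.9, 256, 228 and 252 CPM after heat and 302, 304, 253 and 289 CPM without it, and wildtype libraries 204, 202, 175 and 204 CPM after heat and 249, 241 and 289 CPM without it. The wildtype libraries were separate by temperature, and in rescued animals and mutants they overlapped. The change was -0.12 ± 0.11 in rescued animals (adjusted p = 0.497), -0.30 ± 0.12 in mutants (adjusted p = 0.064) and -0.41 ± 0.13 in wildtype animals (adjusted p = 0.0396, exact permutation p = 0.0571). Without replicate 3 at 20°C, the change in mutants was -0.35 (adjusted p = 0.0423). The wildtype call was lost without any one of the 7 libraries (adjusted p from 0.0662 to 0.0998), with the replicate number as a block (0.0512) and without a count filter (0.13).

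The folding enzymes form and rearrange disulfide bonds. *pdi-2* (WBGene00003963, plus strand of chromosome X, 4524155 to 4526536), a protein disulfide isomerase that is also a subunit of the collagen-modifying prolyl 4-hydroxylase in *C. elegans*, was not called with heat. *pdi-2* had 287, 339, 285 and 229 CPM in rescued animals at 37°C, against 238, 302, 236 and 516 CPM at 20°C. Mutant libraries held 408, 363, 368 and 438 CPM after heat and 314, 444, 404 and 495 CPM without it, and wildtype libraries 615, 634, 545 and 593 CPM after heat and 508, 597 and 1010.1 CPM without it. The temperatures overlapped in each genotype, with the highest level of all 23 libraries in wildtype replicate 4 at 20°C. The change was -0.14 ± 0.23 in rescued animals, -0.07 ± 0.14 in mutants and -0.24 ± 0.22 in wildtype animals (adjusted p = 0.71, 0.727 and 0.439). Without replicate 4 at 20°C, the estimate was 0.185 in rescued animals and 0.10 in wildtype animals, neither past the threshold.

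*ero-1* (WBGene00001334, plus strand of chromosome I, 14663209 to 14674822), the oxidoreductase that passes oxidising equivalents to disulfide isomerases, was lower with heat in wildtype animals. *ero-1* had 65.8, 53.3, 66.9 and 57.8 CPM in rescued animals at 37°C, against 59.1, 69.9, 63.3 and 59.8 CPM at 20°C. Mutant libraries held 50.9, 52.4, 46.9 and 58.7 CPM after heat and 60.6, 67.3, 60.1 and 66.9 CPM without it, and wildtype libraries 52.7, 53.2, 35.8 and 51.3 CPM after heat and 74.3, 69.1 and 82.8 CPM without it. The temperatures were separate in mutants and wildtype animals and overlapped in rescued animals. The change was -0.01 ± 0.13 in rescued animals (adjusted p = 0.975), -0.29 ± 0.12 in mutants (adjusted p = 0.0674, exact permutation p = 0.0286) and -0.65 ± 0.18 in wildtype animals (adjusted p = 0.0228, exact permutation p = 0.0571). The wildtype call was lost without replicate 2 or replicate 4 at 20°C, with changes of -0.64 and -0.59 (adjusted p = 0.0516 and 0.0639).

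*dnj-27* (WBGene00001045, plus strand of chromosome I, 11877803 to 11887278), a J-domain protein with thioredoxin domains related to mammalian ERdj5, was higher with heat in mutants. *dnj-27* had 22.8, 23.2, 29.2 and 19.5 CPM in rescued animals at 37°C, against 16.0, 15.8, 10.5 and 26.2 CPM at 20°C. Mutant libraries held 20.7, 17.5, 27.9 and 20.8 CPM after heat and 12.3, 10.9, 13.5 and 18.7 CPM without it, and wildtype libraries 23.9, 26.9, 22.4 and 29.1 CPM after heat and 12.4, 14.4 and 44.1 CPM without it. The temperatures overlapped in each genotype. The change was 0.51 ± 0.24 in rescued animals (adjusted p = 0.163), 0.65 ± 0.20 in mutants (adjusted p = 0.0228, exact permutation p = 0.0571) and 0.11 ± 0.40 in wildtype animals (adjusted p = 0.847). Without replicate 4 at 20°C, the change was 0.80 in rescued animals (adjusted p = 0.0129) and 0.91 in wildtype animals (adjusted p = 0.0114). The mutant call was in turn lost without any one of 4 mutant libraries, with adjusted p from 0.0547 to 0.0688, with library size alone (adjusted p = 0.076) and in one fit of all 6 groups (adjusted p = 0.109).

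Between genotypes at 37°C, rescued animals differed from wildtype animals in 4 of the 10 genes. *atf-4* and *ire-1* were higher and *crt-1* and *pdi-2* lower in rescued animals, where 40.1% of all genes were called, 18.2% higher and 21.9% lower. *atf-4* differed by 1.09 ± 0.22 on the log2 scale (standard error, adjusted p = 0.00275) and *ire-1* by 0.40 ± 0.14 (adjusted p = 0.0356). *pdi-2* differed by -1.13 ± 0.15 (adjusted p = 0.000239) and *crt-1* by -0.84 ± 0.17 (adjusted p = 0.00268). The libraries of rescued and wildtype animals did not overlap in 6 of the 10 genes, these 4 and *cnx-1* and *ero-1*, which were higher in all rescued libraries and not called, and in 38.2% of all tested genes. The call of *ire-1* was lost without any one of 6 of the 8 libraries, with adjusted p from 0.0644 to 0.0848, without a count filter (0.109) and with depth class as a covariate (0.0635). The other 3 calls held without each library in turn.

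Against mutants at 37°C, *atf-4* was higher in rescued animals by 1.01 ± 0.22 (adjusted p = 0.00259) and *pdi-2* lower, at -0.54 ± 0.14 (adjusted p = 0.00836), where 36.8% of all genes were called, 16.5% higher and 20.3% lower. Both held without each library in turn, and *pdi-2* was not called in one fit of all 6 groups (adjusted p = 0.107). The lowest rescued library of *atf-4* was 47.2 CPM, above the highest mutant library at 41.6 CPM. Between mutants and wildtype animals at 37°C none of the 10 was called (1 by DESeq2), where 0.764% of all genes were (0.134% higher and 0.630% lower). An unadjusted p under 0.05 was found for 2 of the 10 and for 2470 of all 13482 tested genes. The nearest was *pdi-2*, at -0.60 ± 0.12 (adjusted p = 0.0592), with the 4 mutant libraries below the 4 wildtype ones, as for *crt-1*, and an adjusted p of 5.28e-05 by DESeq2. For *pdi-2* at 37°C the 3 genotypes therefore lay in the order rescued animals, mutants and wildtype animals from low to high without overlap. Over all tested genes, 35.6% did not overlap between rescued animals and mutants and 11.3% between mutants and wildtype animals. At 37°C the 5 intestine markers were all called higher in rescued animals than in mutants and than in wildtype animals, by log2 fold changes of 0.95 to 1.68. Against wildtype animals, rescued animals also had 2 of 5 germline and oocyte markers lower (-0.80 and -1.03), both tested hypodermis markers (0.94 and 2.67), 1 of 4 muscle markers (1.17) and 1 of 4 sperm markers (0.79) higher, and 3 of 5 neuron markers lower (-0.77 to -0.45) and 2 higher, *rab-3* among them. Against mutants, 1 hypodermis, 1 muscle, 1 germline and 3 sperm markers were higher, with 2 neuron markers higher and 1 lower. The part of these markers in the differences of the 10 genes was not tested.

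At 20°C, *crt-1* was lower in rescued animals than in both other genotypes. It differed by -1.24 ± 0.22 from wildtype animals (adjusted p = 0.00939), where 12.9% of all genes were called (674 of 13482 genes higher and 7.92% lower), and by -0.60 ± 0.17 from mutants (adjusted p = 0.0296), where 23.1% were (10.1% higher and 13.1% lower). The call against wildtype animals held without each library in turn. The call against mutants was lost without any one of 5 of the 8 libraries, with adjusted p from 0.0552 to 0.0916, and with upper quartile factors (0.0749). *cnx-1* was at -0.29 ± 0.09 against mutants (adjusted p = 0.0532), and at -0.41 without mutant replicate 3 (adjusted p = 0.0152). Without rescued replicate 4, the count of the 10 called lower was 5 against mutants and 4 against wildtype animals, where it was 1 each with all libraries. *pek-1* was at -1.12 ± 0.32 and *pdi-2* at -1.15 ± 0.34 against wildtype animals (adjusted p = 0.0529 and 0.0558), and both passed with the replicate number as a block (adjusted p = 0.00715 and 0.00138). Without wildtype replicate 4 they were at -0.64 and -0.79 (adjusted p = 0.138 and 0.158). Against wildtype animals, mutants at 20°C had *pek-1* at -0.89, *pdi-2* at -0.76 and *crt-1* at -0.68 (adjusted p = 0.215, 0.222 and 0.2135). Without 1 library, these mutant values ranged up to -0.40, -0.40 and -0.41. Between mutants and wildtype animals at 20°C none of the 10 was called (none by DESeq2), where 0.734% of all genes were (0.134% higher and 0.601% lower). An unadjusted p under 0.05 was found for *pek-1*, *pdi-2* and *crt-1*, 3 of the 10, and for 2263 of all 13482 tested genes.

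Whether the response to heat differed between genotypes was tested as an interaction in one model of the 6 groups. Between rescued and wildtype animals, 1 of the 10 genes was called, where 3.08% of all genes were, 2.44% with a positive and 0.638% with a negative difference. *xbp-1* changed more positively in rescued animals, by 0.79 ± 0.22 on the log2 scale (adjusted p = 0.0477). Its changes given above, 0.33 in rescued animals and -0.51 in wildtype animals, came from a separate fit for each genotype. The call of *xbp-1* was lost without any one of 12 of the 15 libraries of the 2 genotypes. Without wildtype replicate 4 at 20°C the difference was 0.68 (adjusted p = 0.169), and over the 12 the adjusted p was 0.0544 to 0.169. With the replicate number as a block the adjusted p was 0.0573. With the shallower libraries alone, which left only replicate 1 of wildtype animals at 37°C, the difference was 0.49. With upper quartile factors (adjusted p = 0.0569) and without a count filter (adjusted p = 0.0721) it was not called either. Among the 10, *ero-1* came next, at 0.60 ± 0.18 (adjusted p = 0.068), and was called with upper quartile factors (adjusted p = 0.0436). In the same test, intestine markers *elt-2*, *ges-1*, *cpr-6* and *act-5* were called, at 2.03, 2.07, 1.87 and 1.51 (adjusted p from 0.00445 to 0.0374). No other tissue marker was called. The part of the markers in the difference of *xbp-1* was not tested. Of the 17 ER chaperones and folding enzymes given below, 2 were called with a positive difference and none with a negative one. These were *dnj-7* at 1.28 and *dnj-20* at 0.82 (adjusted p = 0.0271 and 0.0411).

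All 10 differences in the heat response were positive between rescued and wildtype animals (median 0.50) and between mutants and wildtype animals (median 0.30), 2 comparisons that share the wildtype libraries. Over all tested genes, 46.5% and 56.1% were positive. Without wildtype replicate 4 at 20°C, 7 of the 10 were positive in rescued against wildtype animals (median 0.22, 43.8% of all genes positive) and 6 in mutants against wildtype animals (median 0.08, 52.5% of all genes positive). None of the 10 was called between mutants and wildtype animals, where 0.00% of all genes were (none by edgeR and 2 by DESeq2). An unadjusted p under 0.05 was found there for 2 of the 10 and for 585 of all 13482 tested genes. None was called between rescued animals and mutants, where 0.0445% of all genes were (0.00742% positive and 0.0371% negative). None of the 10 had an unadjusted p under 0.05 there, and 1301 of all 13482 tested genes did. In the separate fits *atf-4* fell by 0.78 in rescued animals and by 1.52 in wildtype animals. The difference of 0.69 ± 0.34 in the model of the 6 groups did not pass the interaction test (adjusted p = 0.215).

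Over the 23 libraries, the 45 pairs of genes had correlations of log2 CPM from -0.77 to 0.92, with a median of 0.23, so the 10 did not vary as one unit. The libraries share groups and makeup, and these correlations are descriptions only. The closest pair was *crt-1* and *pdi-2* (Pearson's r = 0.92), both called lower in rescued than in wildtype animals at 37°C. *ire-1* was close to *cnx-1* (0.78) and *ero-1* (0.77), and *pek-1* to *dnj-27* (0.76). The most opposed pairs were *ire-1* with *pek-1* (-0.77) and *pek-1* with *atf-4* (-0.73), in which one gene was called higher and the other lower with heat in mutants.

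Among 10016 other tested genes averaging 50 counts or more, the 3 whose log2 CPM was most like that of *crt-1* over the 23 libraries were *pdi-2* (0.92), *acdh-7* (0.92), which by its name encodes an acyl-CoA dehydrogenase, and F36F2.2 (0.90). For *xbp-1* they were C32F10.4 (0.86), *fbxa-182* (0.82), of the F-box family, and Y47G6A.5 (0.80), none of them among the 10.

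**Figure D4:**
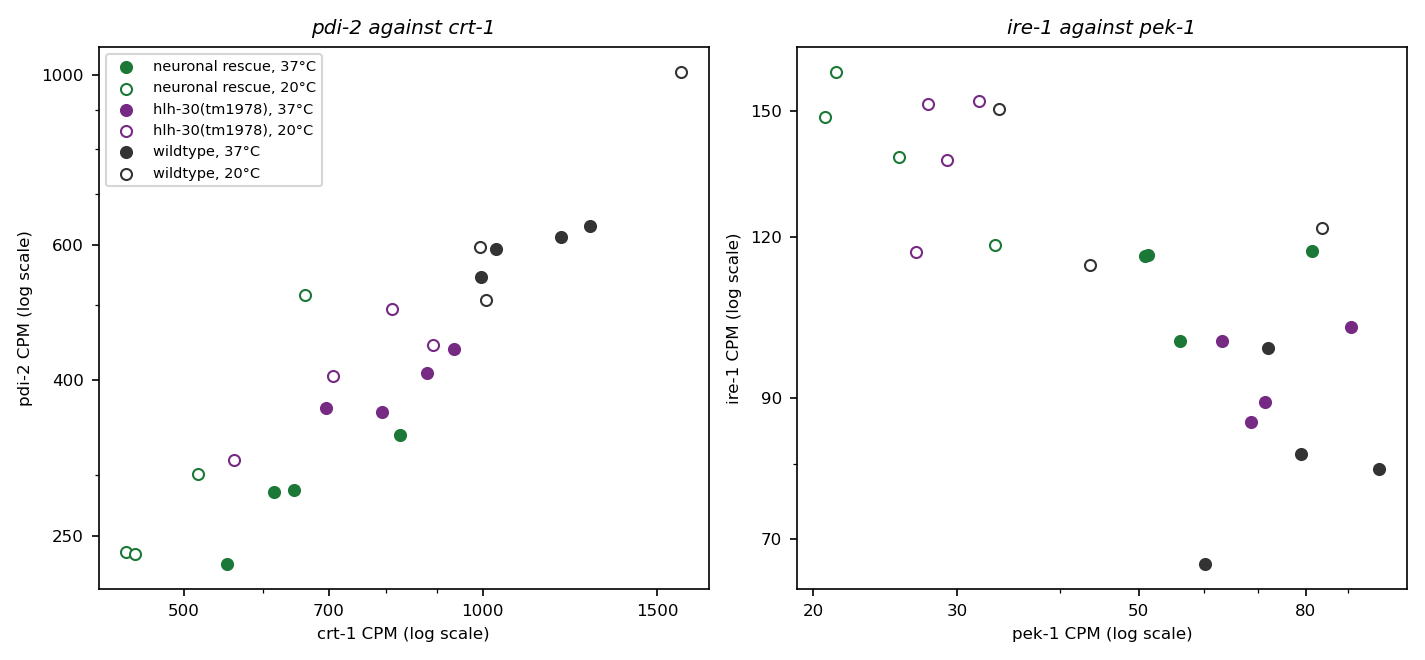
CPM of *pdi-2* against *crt-1* (left) and of *ire-1* against *pek-1* (right), both axes on log scales, 1 point for each of the 23 libraries, filled at 37°C and open at 20°C. On the left the points lie along a diagonal, with most rescued libraries at its low end and most wildtype libraries at its high end, and on the right most libraries at 37°C lie at high *pek-1* and low *ire-1*.

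The wider pathway was described through lists of genes by function, whose counts stand beside the 11.7% of all genes higher and 8.72% lower with heat in rescued animals, 21.3% and 16.8% in mutants, and 2029 of 13482 genes higher and 17.1% lower in wildtype animals. Of 17 tested ER chaperones and folding enzymes outside the 10, 6 rose and 3 fell with heat in rescued animals, 6 rose and 5 fell in mutants, and 3 rose and 6 fell in wildtype animals, with medians of 0.06, -0.06 and -0.23. Over all genes, 20.4%, 38.1% and 32.1% were called in the same order. The largest change was that of *uggt-2*, related to the enzyme that reglucosylates misfolded glycoproteins. Its level was low, 0.279 to 1.57 CPM over the libraries at 20°C and 5.29 to 16.3 CPM over those at 37°C. The change was 2.64 in rescued animals, 3.93 in mutants and 3.69 in wildtype animals (adjusted p = 0.0005, 8.11e-07 and 0.000902). *pdi-1*, another disulfide isomerase, rose by 1.09, 1.39 and 1.67 in the same order. *dnj-20*, related to the ER co-chaperone ERdj3, was lower, at -1.001, -1.47 and -1.87, and each of these was called in all 3 genotypes.

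BiP is the main ER chaperone of the Hsp70 family and is encoded in *C. elegans* by *hsp-3* and *hsp-4*, of which *hsp-4* is the usual reporter of the response. With heat, *hsp-4* was called higher in every genotype. *hsp-4* had 522, 549, 536 and 382 CPM in rescued animals at 37°C, against 198, 186, 199 and 137 CPM at 20°C. Mutant libraries held 724, 705, 585 and 979 CPM after heat and 224, 292, 181 and 234 CPM without it, and wildtype libraries 786, 851, 552 and 508 CPM after heat and 316, 274 and 371 CPM without it. The temperatures were separate in each genotype, with changes of 1.501 ± 0.17, 1.69 ± 0.18 and 1.07 ± 0.23 in rescued animals, mutants and wildtype animals (adjusted p = 5.87e-05, 3.19e-05 and 0.00871). *hsp-3* was called in none, with changes of -0.34, -0.27 and -0.40 (adjusted p = 0.34, 0.214 and 0.236). The heat responses of *hsp-4* were not called different between genotypes, at 0.39 ± 0.28 between rescued and wildtype animals (adjusted p = 0.402). At 37°C both were lower in rescued animals than in mutants, at -0.66 ± 0.17 for *hsp-4* (adjusted p = 0.00868) and -0.47 ± 0.16 for *hsp-3* (adjusted p = 0.0296), the direction also of *pdi-2* there. Of all genes, 20.3% were called lower there. At 20°C the same differences were -0.45 and -0.36 (adjusted p = 0.06755 and 0.352). Against wildtype animals, *hsp-4* was at -0.86 at 20°C and -0.50 at 37°C (adjusted p = 0.0112 and 0.07). *hsp-3* was at -1.01 and -1.03 in the same order (adjusted p = 0.0955 and 0.000611). Of all genes, 7.92% were called lower against wildtype animals at 20°C and 21.9% at 37°C.

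Of 14 tested genes for entry into the ER and glycosylation, 5 fell and none rose in rescued animals, 7 fell and 3 rose in mutants, and 6 fell and 1 rose in wildtype animals, with medians of -0.24, -0.30 and -0.27. Of all genes, 8.72%, 16.8% and 17.1% fell in the same order. All 4 genes of the translocon-associated protein complex (*trap-1* to *trap-4*) and *sec-61.A*, of the protein-conducting channel, were called lower in all 3 genotypes. *trap-1* was at -1.32, -1.56 and -1.37 in rescued animals, mutants and wildtype animals, and *sec-61.A* at -1.22, -1.12 and -0.86. *trap-2* lay at -1.004, -1.21 and -1.08, and *trap-3* at -0.85, -1.08 and -0.84.

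Of 14 genes of ER-associated degradation, 1 fell and none rose in rescued animals, 3 rose and 3 fell in mutants, and 2 rose and 3 fell in wildtype animals, with medians of -0.15, -0.16 and -0.05. The called shares of all genes were 20.4%, 38.1% and 32.1%. *ufd-2*, a ubiquitin chain elongation factor, was lower in all 3, at -0.41, -0.54 and -0.86. *ufd-3* was at 0.31, 0.51 and 0.67, called in mutants and wildtype animals, and *cdc-48.1*, the ATPase that extracts substrates from the membrane, at 0.09, 0.68 and 0.69, called in mutants alone. *marc-6*, a ubiquitin ligase gene, was at -0.26, -0.58 and -0.61, called in mutants and wildtype animals.

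Of 8 signalling partners, 3 rose and none fell in rescued animals, 4 rose and 2 fell in mutants, and 3 rose and 3 fell in wildtype animals, with medians of 0.25, 0.44 and 0.56, beside the same 20.4%, 38.1% and 32.1% of all genes called. *gcn-2*, the other kinase of eIF2α beside PEK-1, was higher in all 3 genotypes, at 1.29, 1.204 and 1.44, as was *gcn-1*, its activator, at 0.87, 1.54 and 1.71. *cth-2*, of the transsulfuration pathway, was lower in mutants and wildtype animals, at -1.07 and -1.39, with -0.46 in rescued animals (adjusted p = 0.0549). *ckb-2*, a choline kinase gene, was lower in wildtype animals, at -1.52, with -0.49 in rescued animals and -0.74 in mutants not called. Of 14 *abu* genes, named for their activation when the response is blocked, 2 had enough counts to test and 1 was called, higher in rescued animals.

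**Figure D5:**
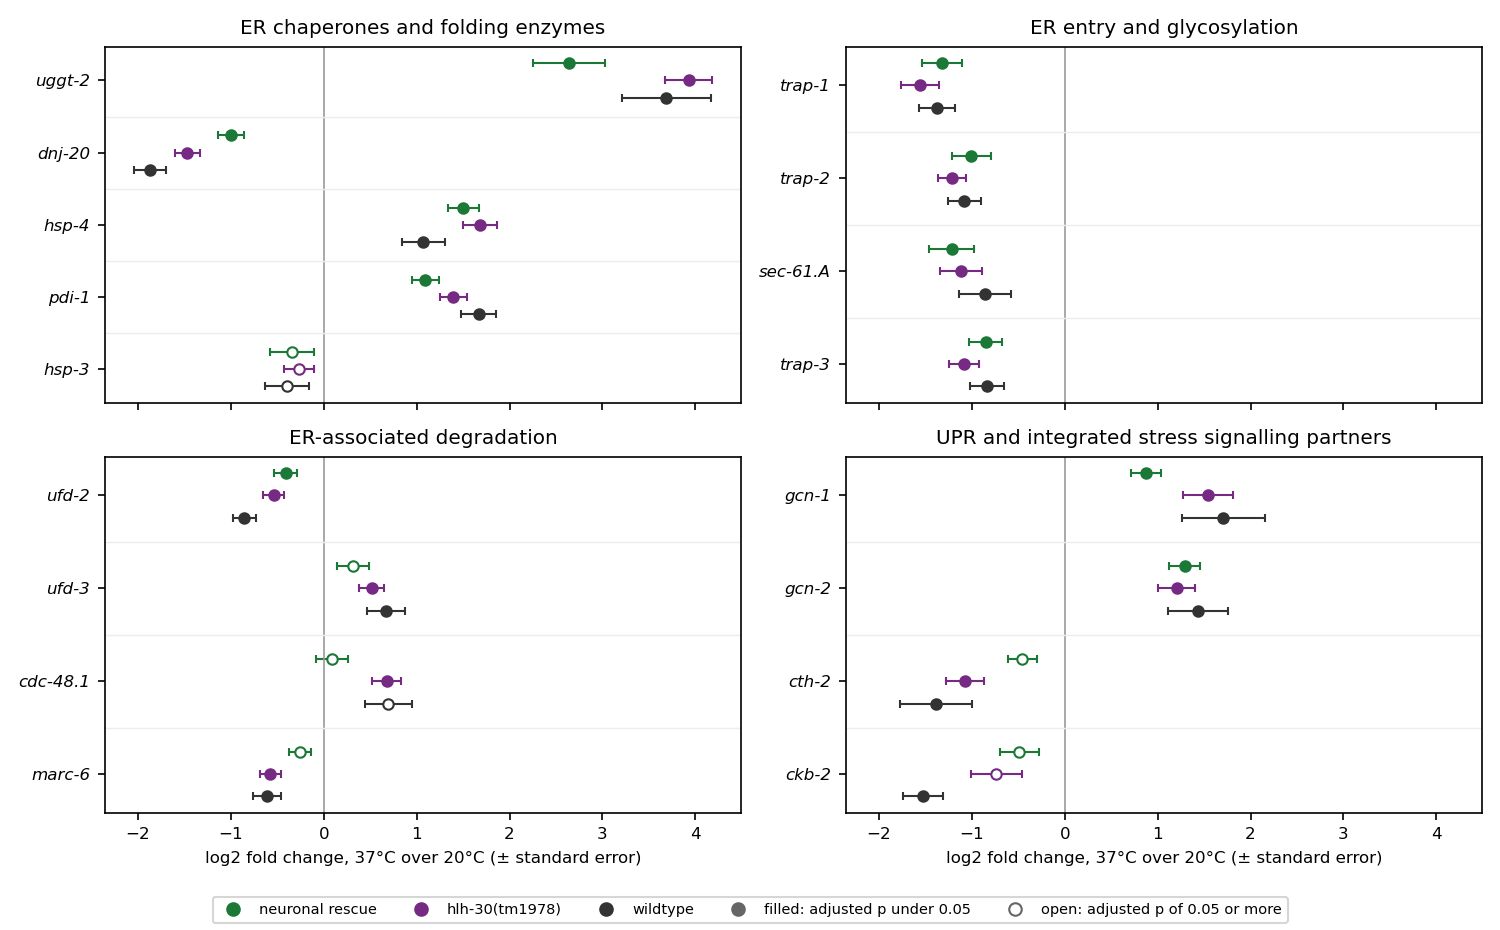
Log2 fold change at 37°C over 20°C (x axis) with its standard error for the genes named from 4 lists of the wider pathway and for *hsp-3*, in rescued animals, mutants and wildtype animals, with filled points where the adjusted p was under 0.05. *hsp-4* lies above 0 and *hsp-3* has only open points, and the 4 genes of ER entry lie below 0 in each genotype.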

How the data were processed

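RNA was sequenced from whole animals, and the authors used Trimmomatic to trim reads, STAR to align them and featureCounts of the Subread package to count reads for each gene. They deposited 1 table of raw read counts per library with WBcel235 gene coordinates. The strand setting of counting is not given in the sources used here. It is therefore not known whether reads of genes that overlap on opposite strands were told apart. On the opposite strand, *crt-1* shares 92 exon bases with *smut-1*, *cnx-1* 49 with ZK632.14 and *ire-1* 4 with *unc-105*. On its own strand, *pdi-2* shares 18 with C07A12.19, and *atf-4* shares 162 with an unnamed gene that was not among those counted. Gene names came from Ensembl release 115.

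Of 24 tables, 23 were used, with the counts per library given above. Genes averaging 10 counts or more were tested with edgeR 4.0.16 in R 4.3.3 (TMM factors, quasi-likelihood test, Benjamini-Hochberg adjustment over 13482 genes, threshold 0.05). Pairwise comparisons used the libraries compared, and interactions used 1 fit of the 6 groups. Levels per length (TPM) were computed from the counts and the deposited gene lengths. Permutation tests were exact and 2-sided (scipy 1.17.1). Replicates were independent populations of animals per the study's methods, and the edgeR tests set differences between groups against the spread between replicates.

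Alternatives were DESeq2 1.42.0, its size factors in edgeR, upper quartile factors, library size only, 2 other count filters, the replicate number as a block, a threshold of 0.01, 1 fit of all groups for the pairwise comparisons, depth class as a covariate, shallower libraries only, and leaving out each library. The fits were tested on simulated data. Text was given to all 10 genes, to *hsp-3*, *hsp-4* and *hlh-30*, and to the 3 genes most alike in pattern to *xbp-1* and to *crt-1*. From each wider list, it was given to at most 4 genes called with heat in at least 1 genotype. These had an average of at least 50 counts and the largest absolute mean change over the genotypes. Tissue markers, *hsp-70*, *dnj-7* and *trap-4* were named beside them. The members and lists were chosen with earlier results of these data known. Of the list genes, *creld-1* and *emo-1* were matched to no row.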

Additional observations from a re-analysis of the deposited data

Results flagged for a closer look

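The 10 genes were each looked at in the 5 groups of 4 libraries, 50 sets of values in all. In 5 of them 1 library lay far from the other 3, by Dixon's criterion. Chance alone gives about 1 such set in 20. *ire-1* was lowest in rescued replicate 2 at 37°C (99.6 CPM, the others 116 to 117 CPM), and *atf-6* was highest in mutant replicate 3 at 37°C (11.1 CPM, the others 6.89 to 7.51 CPM). *atf-4* was highest in rescued replicate 4 at 20°C (169 CPM, the others 89.1 to 99.5 CPM). In wildtype replicate 3 at 37°C, *cnx-1* was lowest (174.7 CPM, the others 202.4 to 203.8 CPM) and so was *ero-1* (35.8 CPM, the others 51.3 to 53.2 CPM). The heat response of *xbp-1* was called different between rescued and wildtype animals, by 0.79 on the log2 scale in the interaction test (adjusted p = 0.0477). As given above, this call was lost without any one of most of their libraries. It was also lost with a replicate block, with upper quartile factors and without a count filter.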

How the results depend on the processing

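Of 30 heat results of single genes, the sign turned in few settings, each time for a change that was not called. *ero-1* in rescued animals was at 0.008 with upper quartile factors. With library size alone, *xbp-1* was at -0.0782 and *crt-1* at -0.0069 in mutants, and *crt-1* was at 0.015 in wildtype animals with depth class as a covariate. Without 1 library, *pdi-2* ranged from -0.29 to 0.185 and *ero-1* from -0.0851 to 0.0602 in rescued animals, *xbp-1* from -0.0643 to 0.21 and *pdi-2* from -0.19 to 0.0252 in mutants, and *crt-1* from -0.20 to 0.16, *pdi-2* from -0.42 to 0.10 and *dnj-27* from -0.18 to 0.91 in wildtype animals. Under settings other than leaving out a library, 286 values of single genes with heat kept direction and side of the threshold, 19 passed it, 21 lost it and 4 changed sign.

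Counts of the 10 called with heat moved from 2 to 1 in rescued animals at a threshold of 0.01, with depth class as a covariate or with shallower libraries only. They moved from 5 to 3 in mutants at 0.01 or with shallower libraries only. In wildtype animals they moved from 4 to 1 at 0.01 or with depth class as a covariate. Shallower libraries alone left only replicate 1 of wildtype animals at 37°C, so no count is given for that setting. At 20°C, rescued against mutant animals (1 called) gave 2 by DESeq2, with depth class and with shallower libraries only, and 0 with upper quartile factors or at 0.01. Rescued against wildtype animals (1 called) gave 4 by DESeq2 and in 1 fit of all groups, and 3 with DESeq2's size factors, without a count filter and with at least 10 counts in every library. Mutants against wildtype animals (0 called) gave 1 in 1 fit of all groups. At 37°C, rescued against mutant animals (2 called) gave 1 in 1 fit of all groups, and rescued against wildtype animals (4 called) gave 7 with library size alone. Mutants against wildtype animals (0 called) gave 1 by DESeq2, with its size factors, with upper quartile factors and with either other count filter. The interaction of rescued and wildtype animals (1 called) gave 2 by DESeq2 and 0 without a filter and at 0.01. With upper quartile factors the 1 called was *ero-1* in place of *xbp-1*. The cause of these moves was not tested.

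Without 1 library, the count called was 1 to 4 with heat in rescued animals, 3 to 6 in mutants and 2 to 4 in wildtype animals. It was 0 to 5 for rescued against mutant and 1 to 4 for rescued against wildtype animals at 20°C. At 37°C it was 2 to 3, 3 to 4 and 0 to 1 for rescued against mutant, rescued against wildtype and mutant against wildtype animals, and for the interaction of rescued and wildtype animals it was 0 to 1.

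Same-numbered replicates were compared between the temperatures, and whether they matched more often than by chance was not tested. Their deviations at the 2 temperatures correlated at -0.20 to 0.41 in rescued animals, 0.03 to 0.44 in mutants and -0.12 to 0.48 in wildtype animals. Rescued replicate 1, mutant replicates 1, 2 and 3 and wildtype replicate 3 matched their own number best, and the other pairs did not. With the replicate number as a block, the count with heat was 2, 6 and 3 in rescued animals, mutants and wildtype animals. With this block it was 2 for rescued against mutant and 3 for rescued against wildtype animals at 20°C, and 0 for the interaction of rescued and wildtype animals. A depth covariate could not be fitted for rescued against wildtype animals at 20°C, where no library was deeper. Depth limits *atf-6* most, with 57 to 364 reads a library.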
